A study of Heliconius melpomene malleti and Heliconius melpomene plesseni with 96 samples.

Results

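The 98 features described here were predicted genes of the butterfly Heliconius melpomene whose signal in the pupal wing was low on day 1 and higher, at a nearly steady level, on days 3, 5 and 7. They were 98 of 12832 features on the array, of which 12778 were predicted genes. They were chosen from the wing arrays alone. For each day the median of the log2 intensity was taken over the 18 wing arrays of that day, and a predicted gene off 3 excluded scaffolds was kept if its medians of days 3, 5 and 7 lay within 1.2 log2 units of each other and each exceeded the day 1 median by at least 1.5. Up to 150 features could be taken in order of the gap, which is the lowest of the later medians minus the day 1 median, but 98 passed and all of them are members. The wing values by day therefore chose the members and are given as a description, with no test. The eye arrays, the differences between wing sections and the differences between races were not used by the choice and were tested.

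RNA from the tissues of pupae was labelled with Cy3 and hybridised to one-colour arrays, 1 sample on each of 96 arrays. The groups were combinations of race (Heliconius melpomene plesseni and Heliconius melpomene malleti), tissue (hindwing, distal forewing, proximal forewing and eye) and pupal day (1, 3, 5 and 7). There were 32 groups with 3 arrays each. No transgene, mutation or treatment was given in the labels, and they do not say how many individuals went into a sample. Arrays were named by their group and by a replicate number that ran from 1 to 96 over the series.

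In the pupal wing of a butterfly, a sheet of epithelium sets aside the precursors of the scales, which then grow out, harden and fill with pigment before the adult emerges. The eye develops in the same animal over the same days, with photoreceptors, lens-forming cells and screening pigments. The 2 races belong to a single species and differ in wing colour pattern. An array feature reports how much of a transcript is present in the RNA of the whole piece of tissue, so fewer cells of a type and less of a transcript per cell cannot be told apart. The features carried no gene names, so each is identified by its scaffold and its first and last base, and no role is assigned to any of them. The build of these coordinates is not given in the sources. The labelled tissues could not be checked against marker genes for the same reason.

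Some arrays stood apart. The median deposited intensity of an array ran between 22.98 and 376, and 10 arrays had a median log2 intensity under 5.5. The array labelled malleti eye day 7, replicate 67, had a Spearman correlation over all features of 0.974 with the distal forewing arrays of day 7 and 0.873 with the other eye arrays of that day. Its correlations with the proximal forewing and hindwing arrays of day 7 were nearly as high, at 0.973 and 0.969. Replicate 69, labelled as malleti proximal forewing of day 7, had 0.983 with the eye arrays of day 7 and 0.870 with the proximal forewing arrays of day 7. These 12 arrays, 7 labelled wing and 5 labelled eye, are called doubted below. Results include them unless stated, and the main counts of called members are also given without them. A total of 2 of the 3 plesseni eye arrays of day 3 were among them.

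The array medians of the members separated day 1 from the later days in the wing. The median over the members on each array ran between 5.99 and 7.09 log2 units on day 1, with a median of 6.53 over 18 arrays. It ran between 8.18 and 10.25 on day 3 with a median of 9.69, between 9.31 and 10.46 on day 5 with a median of 9.76, and between 9.15 and 10.05 on day 7 with a median of 9.67. Every day 1 wing array lay below all 54 later wing arrays. The rule compared day medians of each feature and set no limit on single arrays. The same arrays chose the members, so this separation is a description. The median over all features stayed at 6.85, 6.84, 6.85 and 6.85 on days 1, 3, 5 and 7. Relative to all features the typical member thus stood at percentile 43.8 on day 1 and at percentiles 78.1, 78.8 and 76.1 on days 3, 5 and 7.

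**Figure D1:**
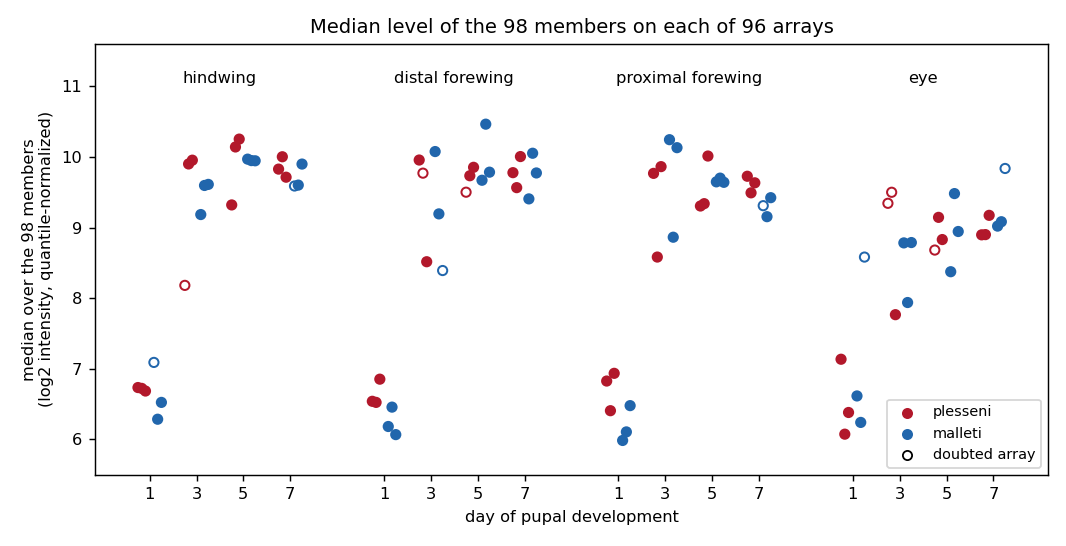
Each point is 1 array, the x axis gives the tissue and the day of pupal development, and the y axis gives the median over the 98 members in quantile-normalized log2 intensity; open circles are the 12 doubted arrays. All 18 wing arrays of day 1 lie at or below 7.09 and all 54 later wing arrays lie at or above 8.18, and in the eye the dim malleti array of day 1 at 8.58 lies among the later arrays.

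Being low on day 1 did not mean being dark. The members' day 1 medians in the wing covered the range of 3.22 to 10.98 log2 units, and 18 of the 98 lay under 4.55, the lower quartile of all features. A total of 52 lay under the median of all features. The day with the highest wing median was day 3 for 31 members, day 5 for 46 and day 7 for 21. The gap had a median of 2.12 log2 units over the members, and it was at least 2 for 54 members, at least 3 for 23 and at least 4 for 9.

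The member with the largest gap, 5.44 log2 units, was the feature at 46803 to 49237 on scaffold HE668322. Its wing arrays had a lowest, median and highest log2 intensity of 3.30, 5.64 and 8.72 on day 1, of 5.64, 11.07 and 13.60 on day 3, of 6.55, 11.34 and 13.07 on day 5 and of 8.71, 11.78 and 13.21 on day 7. Several wing arrays of day 3 were still near the day 1 level, so the single arrays overlapped although the medians were far apart. The second largest gap, 5.18, belonged to the feature at 264987 to 271217 on HE671375. Its wing arrays had a lowest, median and highest value of 5.97, 7.12 and 10.49 on day 1, of 7.86, 12.72 and 13.72 on day 3, of 8.30, 12.30 and 13.39 on day 5 and of 9.96, 12.81 and 13.48 on day 7. Here too the highest day 1 array overlapped the lowest later ones.

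At the other end, the members just inside the limit on the gap were the features at 4530 to 5861 on HE670726, with a gap of 1.51, and at 10406 to 16330 on HE671648, with a gap of 1.505. The first was bright throughout, with wing medians of 10.98, 12.64, 13.19 and 12.49 on days 1, 3, 5 and 7. The other was dim, with medians of 4.86, 6.43, 7.07 and 6.36. The features just outside were those at 775540 to 787040 on HE671164 and at 2814 to 14488 on HE670589, with gaps of 1.49 and 1.48. The limit on steadiness left out the feature at 3283 to 14075 on HE670607, whose gap was 4.80 and whose later medians spanned 1.21 log2 units.

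**Figure D2:**
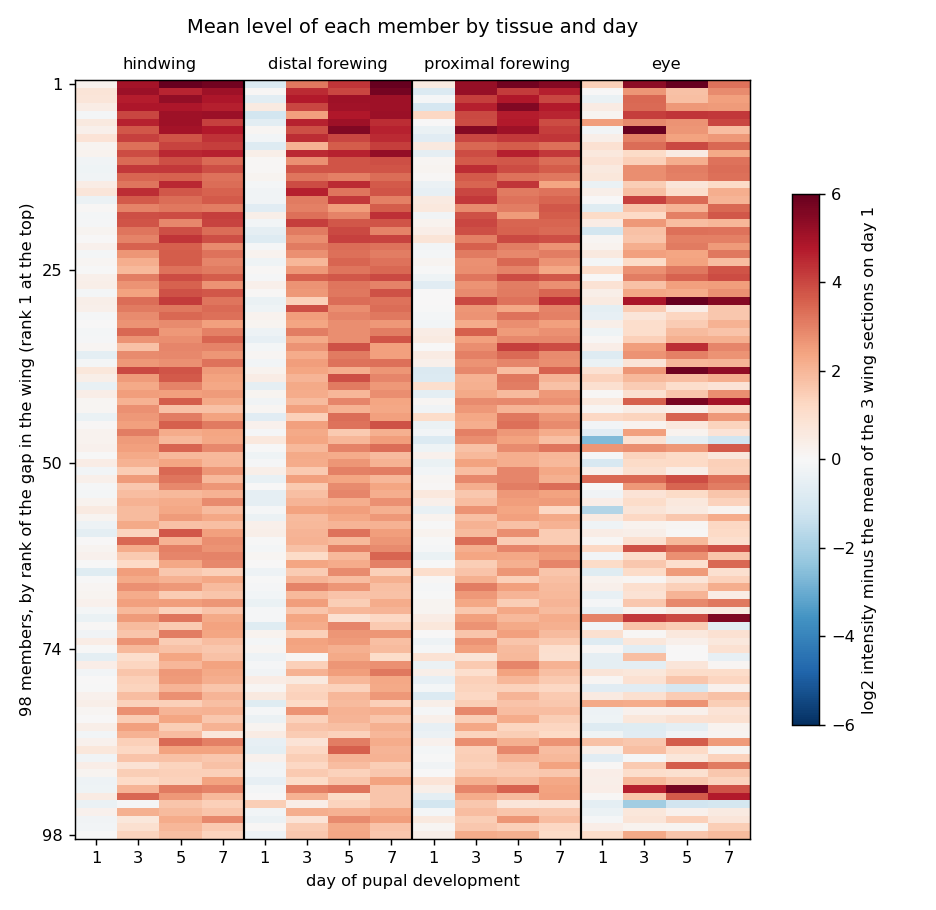
Rows are the 98 members in order of their gap in the wing, columns are days within each tissue (6 arrays each), and colour is the mean log2 intensity minus the mean of the 3 wing sections on day 1, in log2 units. The 3 wing sections share the pale day 1 column and the red later columns that the rule asked for, while the eye columns range between strong red and pale blue.

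Single arrays separated the days for few members. For 5 members every day 1 wing array was below every later wing array, which 11 of the 12832 features (0.0857%) showed. With the doubted arrays left out it held for 19 members and for 37 features (0.288%). These counts use the values that chose the members. The 5 members, named after their values were seen, were the features at 64586 to 83176 on HE670378, 4479 to 9836 on HE671953, 1035 to 8562 on HE671169, 2795 to 84632 on HE670797 and 58159 to 64605 on HE670957. The feature on HE671169 had wing values of 10.06, 11.27 and 12.24 (lowest, median and highest) on the later days, against 6.49, 7.63 and 8.28 on day 1. More than 1 log2 unit of empty range lay between its groups.

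Other properties in the files were number of probes, length and position. A total of 92 of them (93.9%) were measured by 9 probes, against 90.6% of predicted genes. Their median length was 5599 bases, with a range of 205 to 81838, against a median of 5106 bases for predicted genes. They lay on 91 scaffolds, of which 7 carried 2 members, and the highest intensity deposited for a member was 44319, below the 65500 reached by the brightest feature of the series.

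In 4 of the 7 pairs on a shared scaffold the members were immediate neighbours, the longest run there was. On HE668322 the member with the largest gap lay 3436 bases from the feature at 42139 to 43366, whose gap of 4.45 ranked 7. Averaged over the groups, the later days exceeded day 1 in the wing by 5.23 and 4.70 log2 units for the 2 of them. The other neighbours were the features at 14683 to 17375 and 29480 to 34955 on HE670731, with wing differences of 3.05 and 2.50, those at 366910 to 367169 and 406601 to 412203 on HE672008, with 3.08 and 2.09, and those at 95866 to 97854 and 99401 to 104621 on HE670851, with 1.07 and 1.37. Arrays of 1 day could differ widely in the last pair. The feature at 95866 to 97854 ran between 6.30 and 13.05 in the wing on day 1.

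The eye arrays gave a course over days that the choice had not used. In the eye, 61 of the 98 members (62.2%) were higher on the later days than on day 1 and 0 were lower, at an adjusted p under 0.05 in limma. Among all features, 7.43% were higher and 8.73% were lower. At an unadjusted p under 0.05, 69 members were higher and 0 were lower, against 3592 of the 12832 features in either direction. The median difference over the members was 1.40 log2 units, against -0.05 over all features, and the difference was above 0 for 95 members, against 46.1% of all features.

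The array medians of the members in the eye showed the same separation with 1 exception. They ran between 6.08 and 8.58 on day 1 with a median of 6.50 over 6 arrays, between 7.77 and 9.50 on day 3 with a median of 8.79, between 8.38 and 9.48 on day 5 with a median of 8.89 and between 8.90 and 9.84 on day 7 with a median of 9.05. The 8.58 belonged to the dim malleti array of day 1, replicate 73, and without it the highest day 1 array stood at 7.14. The highest day 3 arrays, at 9.34 and 9.50, were the dim plesseni replicates 8 and 60. Without them day 3 ran between 7.77 and 8.79 with a median of 8.36. The array at 9.84 was replicate 67, whose profile was closer to the wing arrays of day 7 than to the other eye arrays of that day. Within a slide, the later eye arrays averaged above the day 1 eye arrays on all 5 slides that held both, by 0.66 to 2.91 log2 units, and without the doubted arrays on all 4 such slides, by 2.21 to 2.71. The sample labels do not name a slide, so the grouping into slides could not be checked against them.

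Leaving out the doubted arrays, 64 members were higher in the eye and 0 lower, with 9.78% of all features higher. On the deposited log2 scale, which carries the differences in array brightness, 38 were higher and 0 lower, with 3.13% of all features higher. With eye arrays alone in the fit 53 members were higher, against 4.01% of all features.

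The calls in the eye were counted by the size of the gap in the wing. Of the 49 members with the larger gaps 41 were called, and of the 49 with the smaller gaps 20, a contrast that was not tested. The difference between later days and day 1 was larger in the eye than in the wing for 13 members, and its median ratio to the wing difference was 55.7% over the members. Across the 98 members the wing and the eye difference had a Pearson correlation of 0.53 and a Spearman correlation of 0.56, given as a description because features of the same arrays are not independent. The wing difference was part of the choice, so its excess over the eye was not tested.

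**Figure D3:**
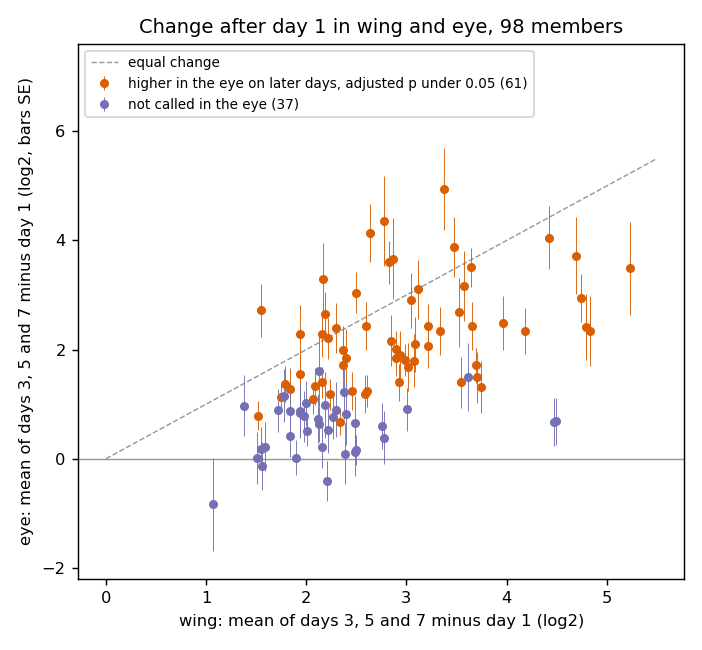
Each point is a member, the x axis gives its mean difference between the later days and day 1 in the wing and the y axis the same in the eye, both in log2 units, with bars for the standard error in the eye. The 61 members called in the eye lie between 0.67 and 4.95, 13 of the 98 members lie above the dashed line of equal change, and 3 members lie below 0.

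The 61 called members had eye differences between 0.67 and 4.95 log2 units, with a median of 2.21. The largest belonged to the feature at 45255 to 49438 on HE670583. Its eye arrays had a lowest, median and highest value of 6.02, 10.003 and 11.70 on the later days, against 3.05, 4.27 and 6.89 on day 1. Most later eye arrays lay above all day 1 arrays, and the dim array of day 1 gave the overlap. The difference was 4.95 ± 0.75 log2 units (SE), a 30.9-fold higher level, with an adjusted p of 8.78e-07 in limma. This SE and p, like those of the other eye comparisons, rest on the spread over wing and eye arrays together. With eye arrays alone in the fit the adjusted p was 0.000573 in limma. In the wing this member reached a lower plateau, with medians of 3.93, 6.71, 7.78 and 7.41 on days 1, 3, 5 and 7.

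The feature at 1563 to 4569 on HE670788 followed, although its gap in the wing was only 1.55. Its eye arrays had 5.70, 10.11 and 12.41 on the later days, against 4.06, 5.15 and 7.49 on day 1, so the ranges overlapped at their ends. The difference was 4.35 ± 0.82 log2 units (SE), with an adjusted p of 5.90e-05 in limma, or 0.00218 with eye arrays alone. Of the 2 members with the largest wing gaps, the feature at 46803 to 49237 on HE668322 had eye values of 7.58, 10.11 and 13.97 on the later days, against 4.60, 7.13 and 9.51 on day 1. The later eye arrays were mostly higher but overlapped day 1, with a difference of 3.49 ± 0.85 log2 units and an adjusted p of 0.00195 in limma. With eye arrays alone the adjusted p was 0.0128 in limma. For the feature on HE671375 the eye values were 6.66, 9.96 and 12.51 on the later days, against 6.30, 7.03 and 9.68 on day 1. Its difference was 2.42 ± 0.60, with an adjusted p of 0.0025 in limma, or 0.013 with eye arrays alone. On the deposited scale the difference was 2.19 with an adjusted p of 0.127.

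Every day 1 eye array was below every later eye array for 2 members, against 11 features in all (0.0857%). The 2, named after their values were seen, were the feature at 2795 to 84632 on HE670797, which also separated the days in the wing, and the one at 29480 to 34955 on HE670731. The feature on HE670731 had eye values of 4.59, 6.11 and 8.96 on the later days, against 2.63, 2.87 and 4.33 on day 1. Its groups did not overlap, and the difference was 3.05 ± 0.38 log2 units with an adjusted p of 6.71e-09 in limma. Its neighbour at 14683 to 17375 differed by 2.90, with an adjusted p of 1.29e-05 in limma. When the doubted arrays were left out, the days separated in the eye for 13 members and for 99 features (0.772%).

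The other 37 members were not called in the eye. Their differences ran between -0.83 and 1.60 log2 units with a median of 0.67, and 34 of them were above 0. Among the 50 members with the largest gaps, the eye difference nearest to 0 belonged to the feature at 770450 to 773932 on HE672075. Its eye arrays had 10.89, 12.19 and 13.43 on the later days, against 10.44, 11.96 and 13.58 on day 1. The eye arrays of day 1 spanned the whole later range, and the difference was 0.16 ± 0.27 log2 units with an adjusted p of 0.758 in limma. In the wing its medians were 10.97, 13.30, 14.17 and 13.30 on days 1, 3, 5 and 7.

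The feature at 191152 to 191916 on HE671891 came next. Its eye arrays stood at 9.32, 13.35 and 13.88 on the later days, against 12.13, 12.44 and 12.82 on day 1, a difference of 0.39 ± 0.49 with an adjusted p of 0.667 in limma. The eye was thus already bright on day 1, when the wing arrays had a median of 10.003. The lowest difference, -0.83 ± 0.86 with an adjusted p of 0.576 in limma, was that of the feature at 95866 to 97854 on HE670851.

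**Figure D4:**
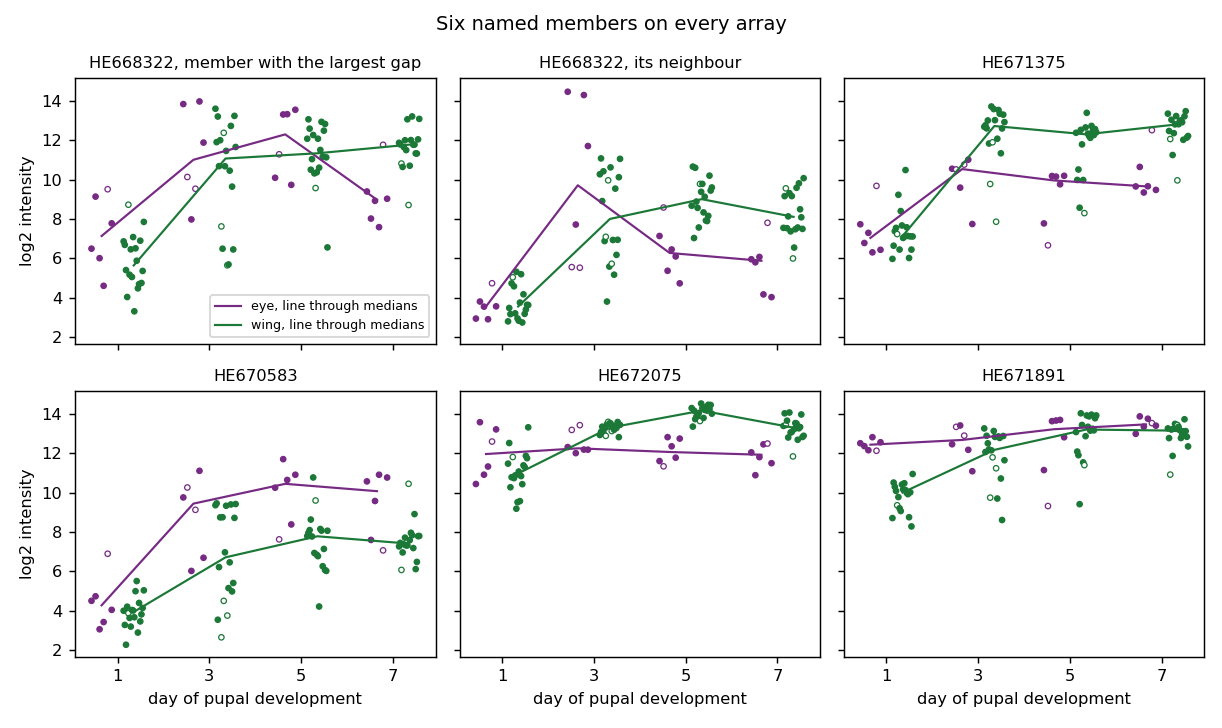
The 6 panels show 6 named members, with 1 point per array, the day of pupal development on the x axis and the quantile-normalized log2 intensity on the y axis; purple is eye, green is wing, lines join the medians of the days and open circles are doubted arrays. The member on HE670583 reaches an eye median of 10.45 on day 5 against 7.78 in the wing, and the members on HE672075 and HE671891 have eye medians between 11.93 and 13.47 on all days.

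The eye difference was then split into steps between sampled days. At the step between days 1 and 3, 41 members were higher on day 3 than on day 1 and 0 were lower in limma, against 4.43% of all features higher and 4.79% lower. At an unadjusted p under 0.05 the counts were 57 and 0, against 24.2% of all features in either direction. The median step was 1.25 log2 units over the members. Leaving out the doubted arrays, 30 members were higher and 1 lower, with 5.13% of all features higher and 3.73% lower and a median of 0.93. The count of higher members fell to 7 on the deposited scale, against 0.499% of all features, to 18 with eye arrays alone, against 1.33%, and to 23 without replicate 51, a malleti eye array of day 1. For fits without a single array, here and below, no share of all features is given. Such counts therefore cannot be compared with all features.

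At the step between days 3 and 5, 10 members were higher on day 5 and 3 were lower, against 6.99% and 8.05% of all features. With those arrays left out 27 were higher and 2 lower, with 8.27% and 10.4% of all features, and the median step was 0.96 in place of 0.34 log2 units. The array brightness moved with these steps: the median brightness of the eye arrays was 217, 116 and 224 intensity units on days 1, 3 and 5, and on the deposited scale the median over all features moved by -0.71 and 0.76 log2 units at the 2 steps. Its part in the timing of the eye steps was not tested. With eye arrays alone 3 members were called, against 3.83% of all features, on the deposited scale 20, against 10.8%, and without replicate 59, a malleti eye array of day 3, 6.

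Between days 5 and 7, 1 member was higher and 1 lower, against 1.05% and 1.1% of all features. The higher one lay at 73 to 2750 on HE670993, with eye values of 9.68, 10.43 and 12.60 on day 7, against 5.80, 8.91 and 9.998 on day 5, and differed by 2.41 log2 units with an adjusted p of 0.0217 in limma. The lower one lay at 20431 to 24494 on HE669522, with 3.13, 4.18 and 4.73 on day 7, against 4.45, 5.48 and 8.26 on day 5, and its difference was -1.61 with an adjusted p of 0.027 in limma. The ranges of both overlapped. Neither was called without the doubted arrays, at an adjusted p of 0.205 and 0.141, nor on the deposited scale, on median-centred values or with eye arrays alone. The count was 0 when any of replicates 15, 16, 24 and 67 was left out and 8 when replicate 38, a plesseni eye array of day 5, was.

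The course in the eye differed widely among members. The feature at 42139 to 43366 on HE668322 had the largest first step. Its eye arrays had a lowest, median and highest value of 5.52, 9.71 and 14.47 on day 3, against 2.90, 3.55 and 4.73 on day 1. All day 3 arrays were above all day 1 arrays, and 2 malleti arrays at 14.47 and 14.30 were far above both doubted plesseni arrays at 5.55 and 5.52. The step was 6.30 ± 0.86 log2 units, with an adjusted p of 1.60e-07 in limma, and 8.61 without the doubted arrays. The SE and this p rest on the spread over wing and eye arrays together. With eye arrays alone in the fit the first step had an adjusted p of 0.00221 in limma. By day 5 its eye arrays had 4.73, 6.27 and 8.58, and the step between days 3 and 5 was -3.49 ± 0.86 with an adjusted p of 0.00387 in limma. With eye arrays alone the second step had an adjusted p of 0.0837.

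In the wing the same feature had medians of 8.00, 9.01 and 8.11 on days 3, 5 and 7, the steadiness the rule required. By race these medians were 9.96, 9.78 and 9.16 in plesseni, against 6.17, 8.33 and 7.55 in malleti. The other 2 members that were lower on day 5 than on day 3 had also been higher on day 3 than on day 1. They were the features at 4688 to 9844 on HE669883 and at 664856 to 672311 on HE671164. The feature on HE671164 had 5.27, 6.96 and 7.67 on day 5, against 8.53, 8.94 and 9.65 on day 3, with no overlap. Its step of -2.21 ± 0.64 had an adjusted p of 0.0135 in limma, and without the doubted arrays it was -1.81 with an adjusted p of 0.0604. On the deposited scale it was -0.89 with an adjusted p of 0.511, and on median-centred values -1.79 with an adjusted p of 0.114.

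Some members were called higher on day 5 than on day 3. The feature at 16595 to 17103 on HE670617 had eye values of 10.27, 11.79 and 12.31 on day 5, against 6.02, 8.88 and 9.20 on day 3. Days 3 and 5 did not overlap, and the step was 3.18 ± 0.91 log2 units with an adjusted p of 0.0126 in limma. On day 1 its eye arrays had 5.65, 6.78 and 7.65. Its median was thus already higher on day 3 than on day 1, although that step was not called. The feature at 31134 to 31853 on HE669454 had 13.57, 13.81 and 14.32 on day 5, against 10.08, 12.03 and 12.44 on day 3, again with no overlap. Its step was 2.20 ± 0.36, with an adjusted p of 1.50e-05 in limma, and its eye medians on days 1 and 3 were 11.70 and 12.03. This feature was measured by 6 probes and the one on HE670617 by 3, fewer than for most members. Both first steps were called upward for 3 members, named after their values were seen, at 14683 to 17375 on HE670731, 9895 to 17537 on HE670245 and 20431 to 24494 on HE669522.

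The counts of members that differed between the wing sections were near the shares of all features. Averaged over races and days, 0 members differed between the distal and the proximal forewing in limma, against 0.522% of all features, and 0 differed between the hindwing and the forewing, against 0.0546%. At an unadjusted p under 0.05, 4 members were higher and 6 lower in the distal than in the proximal forewing, against 8.93% of all features in either direction, and 4 were higher and 0 lower in the hindwing than in the forewing, against 3.47%. The median difference over the members was 0.03 log2 units for distal minus proximal and 0.08 for hindwing minus forewing. The first count was 1 without the doubted arrays, against 2.64% of all features, with wing arrays alone in the fit, against 0.92%, or when any of 12 single arrays was left out. These counts do not show that levels were equal.

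The difference between later days and day 1 was also compared among sections and had a median over the members of 2.55 log2 units in the hindwing, 2.58 in the distal forewing and 2.55 in the proximal forewing. In the means of the 6 combinations of race and section, 96 of the 98 members were higher on the later days in every one. This count and the medians by section split the wing arrays that chose the members. A higher level on the later days was therefore favoured by the choice, and these values are a description with no test. The difference departed between the hindwing and the forewing for 0 members, against 0.109% of all features, with 3 members larger and 3 smaller in the hindwing at an unadjusted p under 0.05 in limma, which 3.2% of all features reached. It departed between the forewing sections for 1 member, against 0.21% of all features.

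That member was the feature at 770450 to 773932 on HE672075, whose eye level hardly moved. Its distal forewing arrays had a lowest, median and highest value of 13.03, 13.57 and 14.53 on the later days, against 9.18, 10.61 and 11.39 on day 1. Its proximal forewing arrays had 11.84, 13.28 and 14.47 on the later days, against 11.30, 11.81 and 13.32 on day 1. The distal groups did not overlap and the proximal groups did, because the proximal forewing was brighter on day 1. The hindwing was like the distal forewing, with 12.80, 13.48 and 14.35 on the later days, against 9.51, 10.79 and 11.81 on day 1.

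The distal difference exceeded the proximal one by 1.89 ± 0.38 log2 units, with an adjusted p of 0.00484 in limma. The excess was 1.86 without the doubted arrays, with an adjusted p of 0.000467. On the deposited scale it was 1.504, with an adjusted p of 0.18, and without replicate 26, a plesseni distal forewing array of day 1, it was 1.57 with an adjusted p of 0.0611. The count of members was 2 without replicate 55, a malleti distal forewing array of day 3, or without replicate 76, a plesseni proximal forewing array of day 1.

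**Figure D5:**
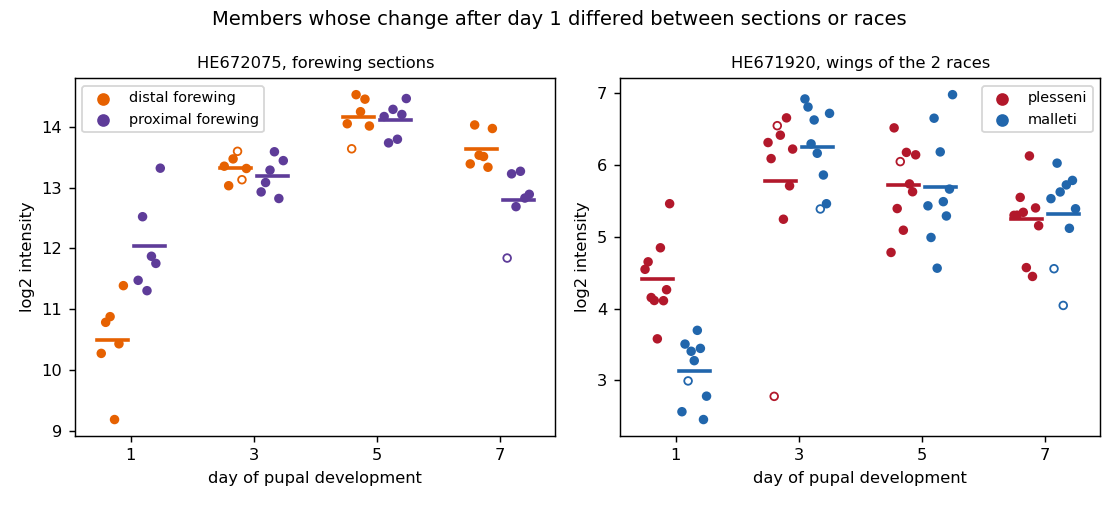
Points are arrays, horizontal bars are the means of 6 arrays (left panel) or 9 arrays (right panel), the x axis is the day of pupal development, the y axis is quantile-normalized log2 intensity and open circles are doubted arrays. In the left panel the distal forewing arrays of HE672075 reach at most 11.39 on day 1 while the proximal ones reach 13.32, and in the right panel the plesseni wing arrays of HE671920 have a day 1 mean of 4.42 against 3.13 in malleti.

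The share of members that differed in level between the races in the wing was near that of all features. Averaged over wing sections and days, 1 member was higher in plesseni and 0 were lower in limma, against 0.787% and 0.296% of all features, and at an unadjusted p under 0.05 the counts were 7 and 3, against 9.72% of all features in either direction. The member was the feature at 42139 to 43366 on HE668322. Its wing arrays of the later days had a lowest, median and highest value of 6.54, 9.58 and 11.08 in plesseni, against 3.80, 7.57 and 10.27 in malleti. On day 1 they had 2.83, 4.17 and 5.31 in plesseni, against 2.74, 3.17 and 5.03 in malleti.

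The plesseni arrays of this feature were mostly higher at both times, with overlap. The difference between the races was 1.34 ± 0.35 log2 units, with an adjusted p of 0.0358 in limma. It was 1.43 without the doubted arrays, with an adjusted p of 0.0125. It was not called on the deposited scale, at an adjusted p of 0.0792, on median-centred values, at 0.068, or when any of 15 single arrays was left out.

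In the eye 1 member was lower in plesseni and 0 were higher, against 0.452% and 0.514% of all features. At an unadjusted p under 0.05, 6 members were lower and 1 higher, against 18.3% of all features in either direction. The lower one was the feature at 58159 to 64605 on HE670957, one of the 5 that separated the days in the wing. Its eye arrays had 8.41, 11.10 and 11.80 in plesseni, against 10.94, 11.45 and 12.35 in malleti. The plesseni arrays below the malleti range were all those of day 1, 2 of day 5 and 1 of day 3. The difference was -0.75 ± 0.20, with an adjusted p of 0.0486 in limma, and the call was lost under all 7 other settings run and when any of 76 single arrays was left out. Without replicate 82, a plesseni eye array of day 3, 10 members were called, and without replicate 55 or 69, both wing arrays of malleti by label, 2 were. No share of all features is given for these fits, so the counts cannot be set against one.

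The difference between later days and day 1 in the wing was larger in malleti for most members, but few passed the test. Its median over the members was 2.32 log2 units in plesseni and 2.71 in malleti. The difference between the races was below 0 for 66 of the 98 members, while it was above 0 for 52.5% of all features, with a median of -0.28 over the members and 0.03 over all features. It passed the test for 1 member, in that direction, and for 0 in the other, against 0.499% and 0.203% of all features, and at an unadjusted p under 0.05 the counts were 8 and 1, against 1283 of the 12832 features in either direction.

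Split by day and without a test, the members' wing level in plesseni minus malleti had a median of 0.29 on day 1, -0.06 on day 3, -0.12 on day 5 and 0.17 on day 7. The members higher in plesseni numbered 67 of 98 on day 1, 44 on day 3, 41 on day 5 and 68 on day 7, against 45.7%, 47.9%, 51.7% and 50.2% of all features. Leaving out the doubted arrays, the numbers were 71, 41, 49 and 56, against 44.9%, 46.6%, 50.3% and 47.5% of all features. The medians over the members were then 0.43, -0.06, -0.01 and 0.10. The array medians of the members on day 1 ran between 6.41 and 6.94 in plesseni with a median of 6.72, against 5.99 to 7.09 in malleti with a median of 6.29. The highest malleti array was the dim replicate 5, without which the malleti arrays reached 6.53 and still overlapped plesseni.

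The single member whose wing difference departed between races was the feature at 84342 to 102919 on HE671920. Its wing arrays had a lowest, median and highest value of 2.78, 5.63 and 6.66 on the later days in plesseni, against 3.58, 4.26 and 5.46 on day 1. In malleti they had 4.05, 5.67 and 6.98 on the later days, against 2.46, 3.28 and 3.70 on day 1. The races overlapped throughout on the later days, while on day 1 all but 1 of the plesseni arrays lay above all malleti arrays.

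The difference between the races was -1.46 ± 0.38 log2 units, with an adjusted p of 0.0428 in limma, and without the doubted arrays it was -1.45 with an adjusted p of 0.00763. It was not called on the deposited scale, at an adjusted p of 1.00, on median-centred values, at 0.495, with slide as a block, at 0.0547, without the dimmest features, at 0.0605, or when any of 33 single arrays was left out. In the eye this feature was low at all times, with a difference of 0.02 ± 0.33 between the later days and day 1 and an adjusted p of 0.981 in limma.

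The features beside the members were counted as well. Higher and lower here mean an adjusted p under 0.05 in limma, and the wing contrast of later days with day 1 was fitted besides the 11 comparisons. The members had 141 immediate neighbours that were not members. In the wing 51 of these (36.2%) were higher on the later days, against 19.9% of all features. Another 17 (12.1%) were lower, against 23.1% of all features, and the median wing difference of the neighbours was 0.17 log2 units. In the eye 15 of the neighbours (10.6%) were higher, against 7.43% of all features. No test of these shares was run.

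Features outside the list could resemble the members closely. Over the 24 wing groups, the 2 non-members whose means correlated most with the median profile of the members were those at 29771 to 30589 on HE670869, with a Pearson correlation of 0.970, and at 11617 to 19607 on HE669906, with 0.965. Both missed the limit on steadiness, since their later medians spanned 2.06 and 1.27 log2 units. In the eye they were higher on the later days than on day 1 by 1.22 ± 0.42 log2 units, with an adjusted p of 0.0341 in limma, and by 2.64 ± 0.48, with an adjusted p of 3.12e-05. The correlation of the members themselves with their own median profile ran between 0.38 and 0.97, with a median of 0.90.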

How the data were processed

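RNA of 96 pupal wing and eye samples was measured on one-colour arrays. Each deposited value is the intensity of a feature on an array, in linear units, which the authors made from the probe signals with RMA (per the submitters' processing notes, without settings). The sources used here name no genome build. The arrays were not on a common scale, so the log2 of each deposited intensity was quantile-normalized over all arrays with limma (version 3.58.1, run in R 4.3.3). Whether a feature exceeded background was not judged. Means of the 32 groups were fitted to all arrays together (64 residual degrees of freedom). The 11 comparisons were tested with eBayes, averaging over days, races or sections with equal weights, with Benjamini-Hochberg adjustment over all 12832 features and a threshold of 0.05. The model was also run on simulated data with independent, normal errors around each feature's mean. Those data held no slide effects and no doubted arrays, so that run does not show how the model handles them.

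The number of arrays limits the precision. Replicates are independent per the series' design text, but whether tissues came from the same individuals is not given, so the p-values measure the spread between arrays. The labels give each replicate number once, so arrays could not be paired.

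The members and the comparisons were chosen with earlier results of these data known. The features named were the 2 with the largest gaps, those just inside and outside the limits, up to 2 in each direction among members called per comparison, the 2 with eye differences nearest to 0 among the 50 largest gaps, neighbouring members and the 2 most alike non-members; others are marked. Because fewer than 150 features passed, the limit on the gap took the place of the limit on number. None of the scaffold names was found in the gene table supplied (0 matches), and no sequences were used.

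Alternatives were deposited log2 values, values centred on each array's median, a block for slide, leaving out the doubted arrays, leaving out the 25% dimmest features, only the arrays of the tissue compared, leaving out each array in turn and, added after seeing the data, leaving out replicates 67 and 69 alone.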

Additional observations from a re-analysis of the deposited data

Results flagged for a closer look

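The difference between later days and day 1 departed between the forewing sections for the member at 770450 to 773932 on HE672075, by 1.89 log2 units for distal minus proximal (SE 0.38, adjusted p of 0.00484 in limma, an interaction term). It departed between the races for the member at 84342 to 102919 on HE671920, by -1.46 log2 units for plesseni minus malleti (SE 0.38, adjusted p of 0.0428 in limma). For HE672075 the distal and proximal means were 10.49 and 12.04 log2 units on day 1 and 13.70 and 13.36 on the later days. For HE671920 the plesseni and malleti means were 4.42 and 3.13 on day 1 and 5.58 and 5.75 on the later days.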

How the results depend on the processing

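No paired analysis was possible because each replicate number occurs once in the series, so the groups compared share none. The rule chose again 85 of the 98 members without the doubted arrays, 94 without replicates 67 and 69, 79 on median-centred values and 70 on the deposited scale. The deposited scale gave counts of called members of 38 for the eye difference between later days and day 1, 7 for eye days 1 to 3, 20 for days 3 to 5, 0 for days 5 to 7, and 0 for race in the wing, race in the eye and the wing difference by section and by race. Median-centred values gave 8 for eye days 3 to 5, 0 for days 5 to 7, race in wing, race in eye and the wing difference by race, and 4 for that by section. The 8 for eye days 3 to 5 were 7 higher and 1 lower, against 391 and 329 of the 12832 features. The 4 by section were larger in the distal forewing, against 76 larger and 10 smaller among all features. Slide as a block gave 0 for race in the eye and the wing difference by race and 2 for that by section. These 2 were larger in the distal forewing, against 28 larger and 5 smaller among all features. Without the doubted arrays there were 29 for eye days 3 to 5, 0 for days 5 to 7, 1 for distal against proximal forewing, 3 for race in wing, 0 for race in eye, and 2 each for the wing difference by section and by race. The 3 for race in wing were 1 higher and 2 lower in plesseni. Leaving out the doubted arrays also moved the shares of all features called in either direction. For race in wing the share was 2.37%, against 1.08% with all arrays. For distal against proximal forewing it was 2.64%, against 0.522%. For the wing difference it was 0.608% by section, against 0.21%, and 1.5% by race, against 0.701%. Without replicates 67 and 69 alone there was 1 for eye days 5 to 7 and 0 for race in eye. The 1 was lower on day 7, against 62 higher and 90 lower among all features. Without the dimmest features race in eye and the wing difference by race gave 0. With the arrays of the tissue alone there were 18, 3 and 0 for the 3 eye steps, 1 for distal against proximal, 0 for race in eye and 2 for the wing difference by section. The share of all features for the last of these was 0.366%. Leaving out each array in turn gave 52 to 64 for the eye difference, 23 to 52, 6 to 14 and 0 to 8 for the 3 eye steps, 0 to 1 for distal against proximal, 0 to 1 for race in wing, 0 to 10 for race in eye, 0 to 2 for the wing difference by section and 0 to 1 for that by race. The counts for hindwing against forewing and for the wing difference by hindwing were 0 under all settings run. The eye difference of HE672075, 0.16 log2 units and not called, ran between -0.18 (without replicate 52) and 0.48 (without replicate 73) as each array was left out, and was -0.06 without replicate 29. Unless split, the counts of called members by setting join both directions. A change in such a count alone does not show a change particular to the members, because the calls among all features can move too. The causes were not tested. Calls that rest on 1 member changed under at least 1 setting for every such comparison, and 3 arrays a group limit what a single member can show.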
